A study of Homo sapiens with 4 samples.

Results

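The 38 genes described here encode the machinery of intraflagellar transport, the trafficking system of the cilium, and of the ciliary transition zone. They were chosen by name, as subunits of the transport complexes IFT-A (6 genes), IFT-B1 (8) and IFT-B2 (6), of the dynein-2 motor (2), the small GTPase ARL3, and the transition zone modules MKS (12) and NPHP (3). The choice was made with earlier results of these data known. Each of the 38 symbols matched a single Ensembl identifier among the 64252 of the deposited count table. RNA was sequenced from the human neuroblastoma line SK-N-BE(2), in which MYCN is amplified, in 2 libraries of cells with a short hairpin RNA against TTC8 (shTTC8) and 2 libraries of cells with a scramble hairpin (shScb). Both groups are the same line and both carry a hairpin. How many hairpins targeted TTC8, and with which sequence, is not stated in the labels, so loss of TTC8 and other effects of a hairpin cannot be told apart. Nor do the labels say whether the libraries within a group are separate cultures. The p-values therefore cover the spread between libraries, and that spread may be technical.

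Cilia have no ribosomes, and their proteins are carried in by trains of IFT complexes. IFT-B couples to kinesin-2 for travel to the tip, IFT-A couples to dynein-2 for the return, and the BBSome, of which TTC8 (BBS8) is a subunit, rides on the trains as an adaptor for membrane proteins. The transition zone at the base, built of the MKS and NPHP modules, gates what enters and leaves, and many of its genes are mutated in Joubert and Meckel syndromes and in nephronophthisis.

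Promoter windows of RefSeq (GRCh38.p14, 250 bases before to 50 after each start) were found for 33 of the 38 genes. Windows of 4 genes are shown 5′ to 3′ on the strand of the gene because the results below return to them. IFT27 (chr22:36776070-36776369, minus strand) and IFT43 (chr14:75985513-75985812, plus strand) rose in shTTC8, and their capitals mark the cAMP response element TGACGTCA and, in IFT27, the half-site GTTGCC of the X-box, read on the opposite strand. IFT122 (chr3:129439974-129440273, plus strand) was the 1 member whose window held the full X-box consensus, the site bound by RFX factors at many ciliary genes, which is in capitals. IFT80 (chr3:160399176-160399475, minus strand) was the member with the largest change, and its capitals mark the 76 bases that also lie in a window of its divergent neighbour SMC4.
IFT27: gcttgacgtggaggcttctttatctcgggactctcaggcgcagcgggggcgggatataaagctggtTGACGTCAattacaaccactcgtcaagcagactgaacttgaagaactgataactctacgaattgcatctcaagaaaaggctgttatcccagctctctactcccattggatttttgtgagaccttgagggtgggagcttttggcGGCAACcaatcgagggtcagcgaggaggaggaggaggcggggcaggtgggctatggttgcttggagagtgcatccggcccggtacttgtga
IFT43: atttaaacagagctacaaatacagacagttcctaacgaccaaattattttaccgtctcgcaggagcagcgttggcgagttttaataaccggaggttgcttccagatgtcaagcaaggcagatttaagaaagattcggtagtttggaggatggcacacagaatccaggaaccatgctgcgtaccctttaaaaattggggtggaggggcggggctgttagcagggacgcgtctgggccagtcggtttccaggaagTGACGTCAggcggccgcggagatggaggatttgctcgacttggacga
IFT122: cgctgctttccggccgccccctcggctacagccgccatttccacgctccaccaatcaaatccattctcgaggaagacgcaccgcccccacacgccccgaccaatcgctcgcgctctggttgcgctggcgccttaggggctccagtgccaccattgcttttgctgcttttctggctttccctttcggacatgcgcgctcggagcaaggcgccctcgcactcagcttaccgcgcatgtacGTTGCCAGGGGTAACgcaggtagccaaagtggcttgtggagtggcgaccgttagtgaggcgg
IFT80: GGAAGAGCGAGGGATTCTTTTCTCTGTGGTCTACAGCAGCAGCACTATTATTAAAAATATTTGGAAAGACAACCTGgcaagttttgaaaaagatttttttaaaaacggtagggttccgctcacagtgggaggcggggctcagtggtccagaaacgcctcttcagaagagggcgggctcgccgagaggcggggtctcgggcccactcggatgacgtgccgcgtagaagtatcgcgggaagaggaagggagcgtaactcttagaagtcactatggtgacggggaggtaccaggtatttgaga

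Gene counts summed to 38284663 and 40863047 in the shTTC8 libraries, against 51168727 and 55331449 in the shScb libraries. TTC8 (ENSG00000165533, chromosome 14, 88824153 to 88881078, GRCh38) had 1130 and 1268 counts in shTTC8 and 9888 and 10398 counts in shScb, which is -2.70 on the log2 scale (standard error, SE, 0.07, adjusted p = 5.38e-12 by edgeR). Sympathetic neuroblast markers such as HAND2, GATA3 and DBH were present in every library. Levels are given in CPM (counts scaled to a common library size by TMM). Summed over 8 markers, MYCN among them, the level was 6580 and 6730 CPM in shTTC8 and 9070 and 9480 CPM in shScb. MYCN alone gave 3710 and 3820 CPM of the sums in shTTC8 and 5660 and 5820 CPM of those in shScb. Of these 8 markers, 6 were called lower and 1 higher, and HAND2 was not called (log2 fold change 0.06). Of 9 matched markers of multiciliated cells, 6 passed the low-count filter and none was called, and DNAI2 and RSPH1 were at 0 counts in all 4 libraries. Their summed level was 12.3 to 14.9 CPM in shTTC8 and 10.6 to 12.1 CPM in shScb. Summed fibroblast and endothelial markers, by contrast, were at 73.9 to 75.2 CPM in shTTC8 and 270 to 283 CPM in shScb, with all 6 tested markers lower and PECAM1 and TEK at 0. LUM alone gave 28.6 and 31.2 CPM of the sums in shTTC8 and 191 and 180 CPM of those in shScb. The endothelial marker VWF was at 0.129 and 0.0966 CPM in shTTC8 and 1.4 and 1.01 CPM in shScb, and CDH5 and KDR did not pass the low-count filter. Schwann cell markers summed to 15.2 and 13.7 CPM in shTTC8 and 36.1 and 37.8 CPM in shScb, with 1 of 4 tested lower (NGFR, -1.86) and SOX10 and PMP2 at 0. Epithelial and blood cell markers summed to 10.4 and 10.6 CPM in shTTC8 and 24.3 and 23.5 CPM in shScb, with 2 of 5 tested lower (KRT19, -1.59, and PTPRC, -2.23) and CD3E and HBB at 0. The part of these markers in the results below was not tested. All libraries came from the same neuroblastoma line, and whether its own cells or cells of another type carried these transcripts was not tested. In bulk RNA, fewer cells of a type and less RNA per cell cannot be told apart.

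Most genes of intraflagellar transport and the transition zone were not called different between shTTC8 and shScb. All 38 passed the low-count filter. By edgeR's quasi-likelihood test, adjusted over 19610 genes at 0.05, 4 members rose (IFT27, IFT43, WDR19 and ARL3) and 2 fell (IFT80 and TMEM237). These 6 are 15.8% of the members, whereas 31.9% of all tested genes were called (15.2% higher and 16.7% lower). Among the 8214 tested protein-coding genes within the members' range of mean level, 2.48 to 62.9 CPM, 40.0% were called (18.3% higher and 21.6% lower). The median log2 fold change of the members was -0.02, beside 0.004 for all tested genes. Their median absolute log2 fold change was 0.15, beside 0.23 for protein-coding genes in the same range of level. The members were chosen with earlier results of these data known, so these shares and medians are a description only. The libraries of the groups did not overlap for 27 of the 38, 13 above and 14 below in shTTC8, beside 65.5% of all tested genes (32.5% above and 32.9% below). For the protein-coding genes of like level the share was 72.4% (35.0% above and 37.4% below). The 4 higher and 2 lower calls became 5 and 1 when libraries were scaled by size alone, where 32.3% of all tested genes were called. With an offset that corrects for the GC content and length of transcripts they became 7 and 1, beside 37.1% of all tested genes. Leaving out 1 library, which leaves 1 in its group, also changed the member calls.

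**Figure D1:**
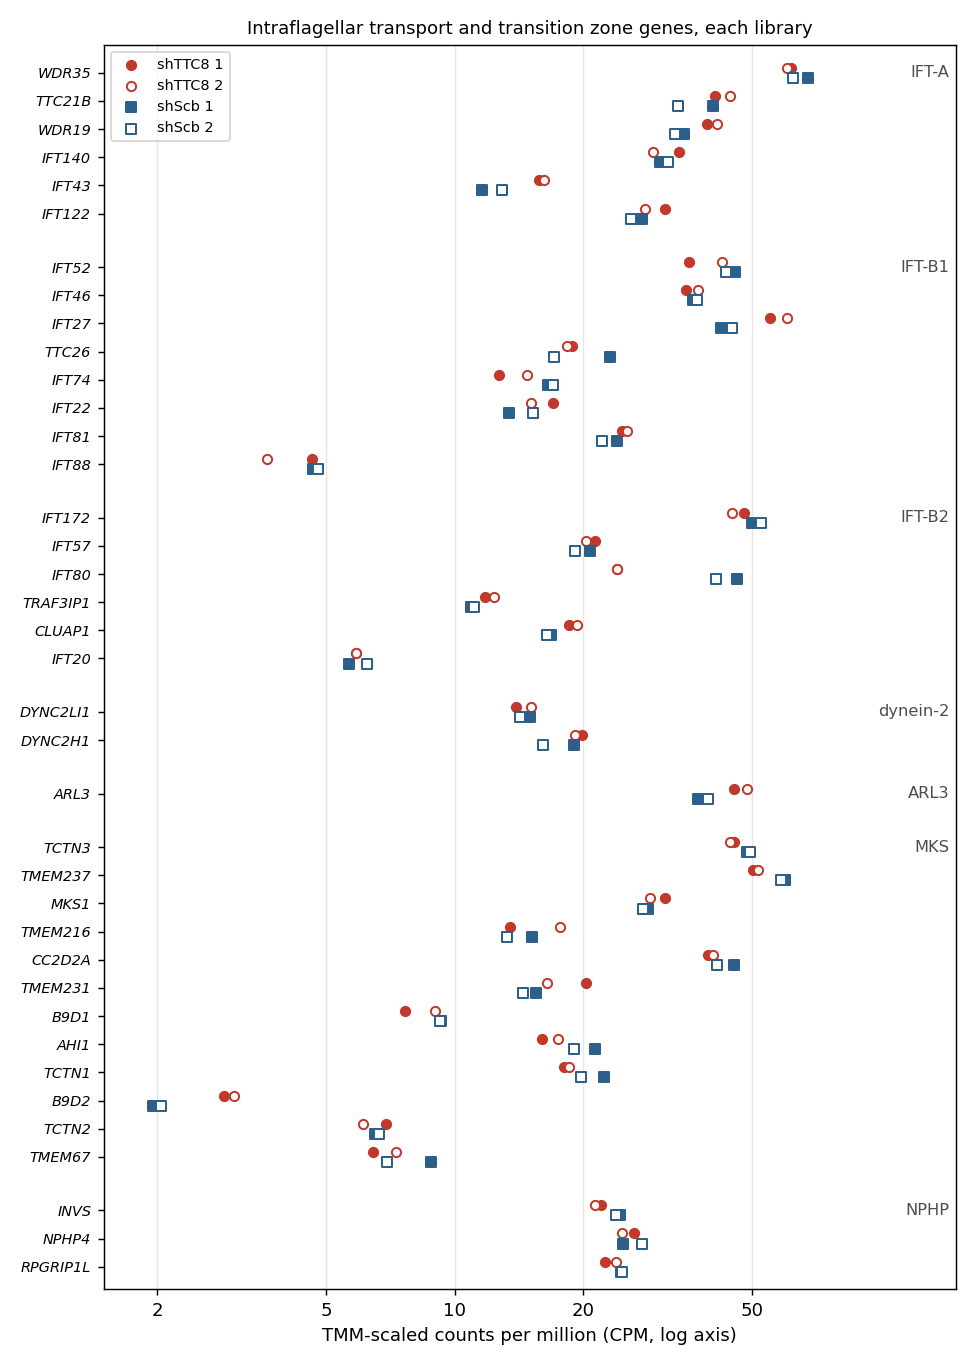
Level of each of the 38 member genes in every library, as TMM-scaled CPM on a log axis, grouped by submodule and ordered within it by level per kilobase of exon. Circles are shTTC8 libraries and squares shScb libraries (filled, replicate 1; open, replicate 2); IFT80 is the gene whose groups lie farthest apart, at 24.1 and 24.1 CPM in shTTC8 and 46.0 and 41.1 CPM in shScb.

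The size of the standard errors sets what could have been seen. They ran from 0.07 to 0.23 on the log2 scale, with a median of 0.10. Of the 32 members not called, 30 had a 95% interval of the fold change that lay wholly within 1.5-fold in either direction. The exceptions were IFT88 (-0.60 to 0.21) and B9D2 (0.07 to 1.06, which reaches past 2-fold). Only 12 of the 32 lay within the narrower limit of 0.32 on the log2 scale. Since 5 of the 6 called members themselves changed by less than 1.5-fold, changes of the size that was called lie within the limit of 1.5-fold. In all, 10 members share exonic bases with a neighbour that had at least 10% of their own counts, and without them the calls were 3 higher and 1 lower of 28.

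IFT-A, the complex of retrograde transport and of membrane protein import, had 2 of its 6 genes called, both higher, a share of 33.3% that is near the 31.9% of all tested genes and below the 40.0% of protein-coding genes of like level. IFT43, a small peripheral subunit (ENSG00000119650, chromosome 14, 75902136 to 76084585), had 15.8 and 16.2 CPM in shTTC8, against 11.6 and 12.9 CPM in shScb. The shTTC8 libraries lay close together and above both shScb libraries, and IFT43 rose by 0.39 on the log2 scale (SE 0.11, adjusted p = 0.0135 by edgeR). WDR19, the core subunit IFT144 (ENSG00000157796, chromosome 4, 39182404 to 39285810), had 39.2 and 41.4 CPM in shTTC8 and 34.5 and 32.9 CPM in shScb. It rose by 0.26 (SE 0.08, edgeR adjusted p = 0.0249), again with no overlap. Neither call held throughout: without shTTC8 replicate 2 the edgeR adjusted p was 0.0738 for IFT43 and 0.21 for WDR19, and without shTTC8 replicate 1 it was 0.0607 for IFT43 and 0.0738 for WDR19. IFT43 also lost its call without shScb replicate 1 (edgeR adjusted p = 0.0688), and WDR19 without a low-count filter (edgeR adjusted p = 0.0692). The exons of IFT43 share 85 bases (2.04%) with TTLL5 on the same strand, which had 251% of its counts and fell by 0.43, and the part of these bases in the IFT43 value was not tested.

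The other IFT-A genes were not called. TTC21B, which encodes IFT139, had 40.9 and 44.2 CPM in shTTC8 and 40.4 and 33.5 CPM in shScb (log2 fold change 0.20, SE 0.09, edgeR adjusted p = 0.121). Its shScb libraries differed more from each other than the nearer one did from shTTC8. Without shScb replicate 1 the gene was called (0.34, edgeR adjusted p = 0.00153), as it was with the GC and length offset (0.32, edgeR adjusted p = 0.00353). IFT122, whose promoter window carries the X-box, had 31.1 and 28.0 CPM in shTTC8 and 27.5 and 25.9 CPM in shScb (0.15, SE 0.09). IFT140 stood at 0.02 and WDR35, which encodes IFT121, at -0.10 on the log2 scale. On the scale of CPM per kilobase of exon, WDR35 had the highest level of the complex at a mean of 8.03 over the 4 libraries, and IFT122 the lowest at 2.92.

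IFT-B1, the core of the anterograde train, had 1 of 8 genes called (12.5%, beside 31.9% of all tested genes and 40.0% of protein-coding genes of like level). TTC30A and TTC30B, which encode the IFT-B1 subunit IFT70, and HSPB11, the partner of IFT27, lie outside these 8. Of those genes, described below, TTC30B (-1.56) and TTC30A (-0.87) were called lower and HSPB11 (-0.16) was not called. IFT27, a RAB-like GTPase that links the train to BBSome exit from the cilium (ENSG00000100360, chromosome 22, 36758202 to 36776256), had 54.9 and 60.3 CPM in shTTC8, against 42.1 and 44.7 CPM in shScb. Both shTTC8 libraries lay above both shScb libraries, and the rise of 0.41 on the log2 scale (SE 0.08, adjusted p = 9.29e-04 by edgeR) was the largest among called members. The call held in all 14 alternative fits, at 0.34 to 0.47. IFT22, the other RAB-like GTPase of the complex, had 17 and 15.1 CPM in shTTC8 and 13.4 and 15.3 CPM in shScb, and its groups overlapped (0.16, SE 0.11).

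The coiled-coil pair that binds tubulin, IFT74 and IFT81, was not called. IFT74 had 12.7 and 14.8 CPM in shTTC8 and 16.6 and 17 CPM in shScb, with no overlap but an edgeR adjusted p of 0.0601 (log2 fold change -0.29, SE 0.11). That value crossed the threshold without shTTC8 replicate 2 (edgeR adjusted p = 0.0423), with a stricter filter of at least 1 CPM in 2 libraries (0.0425) and after counts were thinned to the total of the smallest library (0.0415). IFT81 had 24.7 and 25.4 CPM in shTTC8 and 24.1 and 22.2 CPM in shScb. IFT46, which helps hold the core together, had 34.9 and 37.3 CPM in shTTC8 and 36.2 and 37.1 CPM in shScb. Its groups overlapped. IFT52, a scaffold of the complex, had the highest level per kilobase of all members, 15.4 CPM per kilobase in shTTC8 and 17.5 in shScb. IFT88, the subunit mutated in the Oak Ridge polycystic kidney mouse, had the lowest, 0.676 CPM per kilobase in shTTC8 and 0.772 in shScb. Without scaling by length, IFT88 stood at 4.63 and 3.62 CPM in shTTC8 and 4.65 and 4.78 CPM in shScb. TTC26, which encodes IFT56, had 18.9 and 18.4 CPM in shTTC8 and 23.1 and 17.1 CPM in shScb, so the shScb libraries enclosed the shTTC8 ones. Its log2 fold change of -0.11 became -0.31 without shScb replicate 2 (edgeR adjusted p = 0.0237) and 0.12 without shScb replicate 1 (edgeR adjusted p = 0.514).

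In IFT-B2, the peripheral part that docks kinesin-2, 1 of 6 genes was called, and it carried the largest change of all members. That share of 16.7% stands beside 31.9% of all tested genes and 40.0% of protein-coding genes of like level. IFT80 (ENSG00000068885, chromosome 3, 160256986 to 160399880, minus strand) had 937 and 996 counts in shTTC8 and 2326 and 2232 in shScb. Both shTTC8 libraries lay well below both shScb libraries. IFT80 stood at 55.3% of its mean level in shScb (log2 fold change -0.85, SE 0.09, adjusted p = 3.71e-06 by edgeR), and the call held in all 14 alternative fits (-0.93 to -0.74). The neighbouring SMC4, a condensin subunit gene transcribed divergently, shares 607 exonic bases (8.46% of the IFT80 exons) and had 536% of its counts. SMC4 fell as well, to 132 CPM in shTTC8 against 231 CPM in shScb (log2 fold change -0.81, SE 0.07, edgeR adjusted p = 4.16e-07). Whether the counting used strand is not stated in the labels, so reads in the shared bases may have been counted for either gene, and their part in the IFT80 value was not tested.

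The remaining IFT-B2 genes lay within 0.19 of 0 on the log2 scale. IFT172, a long subunit at the train's edge, had 47.9 and 44.7 CPM in shTTC8 and 50 and 52.3 CPM in shScb (-0.14, SE 0.08). CLUAP1, which encodes IFT38, had 18.6 and 19.4 CPM in shTTC8 and 16.8 and 16.5 CPM in shScb (0.19, SE 0.10, edgeR adjusted p = 0.156). IFT20, the subunit that also works at the Golgi, had 5.87 and 5.85 CPM in shTTC8 and 5.66 and 6.22 CPM in shScb. It shares 11.2% of its exonic bases with TMEM97, a gene on the opposite strand with 1300% of its counts, which fell by 0.49. IFT57 and TRAF3IP1, which encodes IFT54, stood at 0.06 and 0.14.

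Among the motor genes, DYNC2H1, the heavy chain of dynein-2, had 19.9 and 19.2 CPM in shTTC8 and 19.1 and 16.1 CPM in shScb (log2 fold change 0.15, SE 0.11, edgeR adjusted p = 0.309). With the GC and length offset it was called at 0.29 (edgeR adjusted p = 0.0165). The light intermediate chain gene DYNC2LI1 had 13.9 and 15.1 CPM in shTTC8 and 15.0 and 14.2 CPM in shScb, with overlapping groups. Other dynein-2 subunit genes lie outside the 38 and were called in both directions, as given below. ARL3, the GTPase that releases lipid-anchored proteins from their carriers inside the cilium (ENSG00000138175, chromosome 10, 102673731 to 102714407), had 45.3 and 48.6 CPM in shTTC8, against 37.2 and 39.4 CPM in shScb. The groups did not overlap and ARL3 rose by 0.29 on the log2 scale (SE 0.08, adjusted p = 0.0107 by edgeR). Leaving out shTTC8 replicate 2 removed that call (adjusted p = 0.144).

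**Figure D2:**
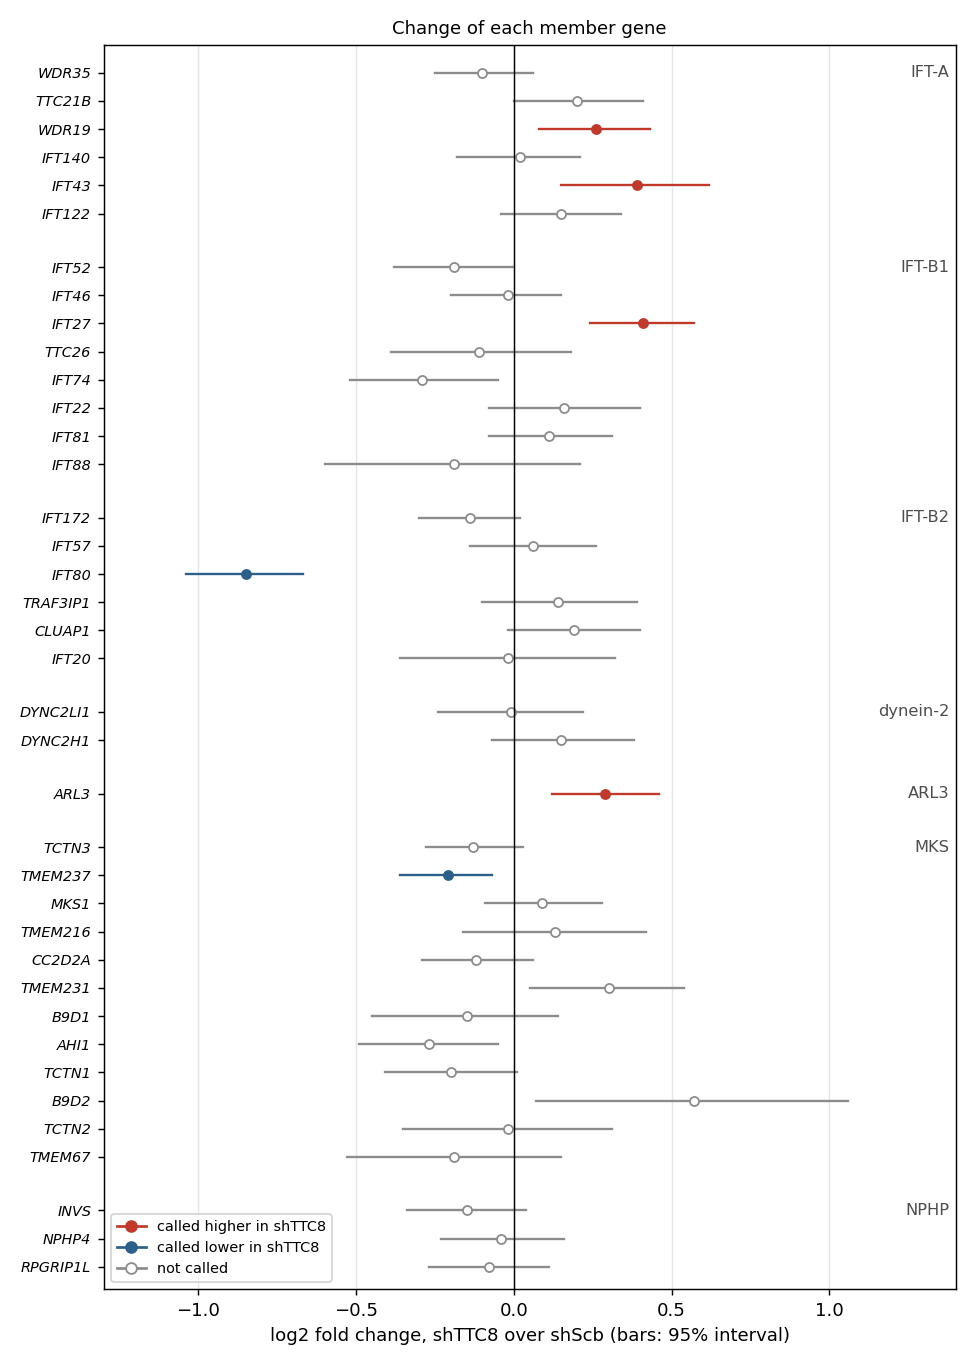
Log2 fold change of shTTC8 over shScb for each member with its 95% interval from the edgeR fit, by submodule. Filled red points are called higher, filled blue points called lower and open grey points not called; only IFT80 lies beyond 0.57 in either direction.

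The transition zone had 1 of its 15 genes called (6.67%, beside 31.9% of all tested genes and 40.0% of protein-coding genes of like level). Of the 15, 11 had negative log2 fold changes. Their median was -0.12 over all 15, beside -0.008 for protein-coding genes of like level. Some of the 11 lay near 0, and TCTN2 and RPGRIP1L changed sign with the GC and length offset. TMEM237, a membrane protein of the MKS module (ENSG00000155755, chromosome 2, 201620184 to 201643570), had 50.3 and 51.5 CPM in shTTC8, against 59.6 and 58.4 CPM in shScb. Replicates were close and the groups apart, but the change was small, at -0.21 (SE 0.07, edgeR adjusted p = 0.0287). The call was lost with library size alone (edgeR adjusted p = 0.0743), with the GC and length offset (0.0708), and without shTTC8 replicate 1 (0.214) or 2 (0.14).

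Other MKS genes came near the threshold in both directions. AHI1, which encodes jouberin, had 16.0 and 17.5 CPM in shTTC8 and 21.4 and 19.1 CPM in shScb (log2 fold change -0.27, SE 0.10, adjusted p = 0.055 by edgeR). AHI1 was called without shScb replicate 2 (edgeR adjusted p = 0.0114) and with the stricter filter (0.0382). TMEM231, a membrane protein of the B9 complex, had 20.3 and 16.5 CPM in shTTC8 and 15.5 and 14.5 CPM in shScb (0.30, SE 0.11, edgeR adjusted p = 0.0603). It was called in 6 of 14 alternative fits, with the replicate block among them (edgeR adjusted p = 0.0451). The B9-domain gene B9D2 had 2.88 and 3.04 CPM in shTTC8 and 1.96 and 2.04 CPM in shScb, the largest positive value of all members at 0.57, but with the largest SE of 0.23 it was not called (edgeR adjusted p = 0.076).

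The other B9-domain genes lay nearer to 0: B9D1 stood at -0.15 (SE 0.14) and MKS1 at 0.09 (SE 0.09). The tectonic genes, whose products sit at the transition zone membrane, were at -0.20 (TCTN1), -0.02 (TCTN2) and -0.13 (TCTN3), none called. TCTN3 had the highest level per kilobase of the module at a mean of 14.6 CPM per kilobase, and TMEM67, which encodes meckelin, the lowest at 0.889. TMEM67 had 6.44 and 7.30 CPM in shTTC8 and 8.78 and 6.92 CPM in shScb. CC2D2A, a C2-domain protein at the base of the module, had 39.3 and 40.5 CPM in shTTC8 and 45.4 and 41.2 CPM in shScb (-0.12, SE 0.08). TMEM216 was at 0.13 with overlapping groups.

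The NPHP genes were all slightly negative and none was called. INVS, which encodes inversin, had 22.1 and 21.3 CPM in shTTC8 and 24.4 and 23.9 CPM in shScb (log2 fold change -0.15, SE 0.09, edgeR adjusted p = 0.221). RPGRIP1L, a scaffold that joins the NPHP and MKS modules, had 22.6 and 23.9 CPM in shTTC8 and 24.6 and 24.7 CPM in shScb (-0.08, SE 0.09). NPHP4 overlapped between the groups (-0.04, SE 0.09).

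Summed over the 38 genes, the machinery held 963 and 977 CPM in shTTC8 and 996 and 961 CPM in shScb, so the totals overlapped. Summed IFT-A was 222 and 219 CPM in shTTC8 and 212 and 199 CPM in shScb. Summed IFT-B2 was 130 and 127 CPM in shTTC8 and 150 and 146 CPM in shScb. Without IFT80 the other 5 genes summed to 106 and 103 CPM in shTTC8 and 104 and 105 CPM in shScb, which overlap. The MKS module summed to 258 and 261 CPM in shTTC8 and 283 and 268 CPM in shScb.

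**Figure D3:**
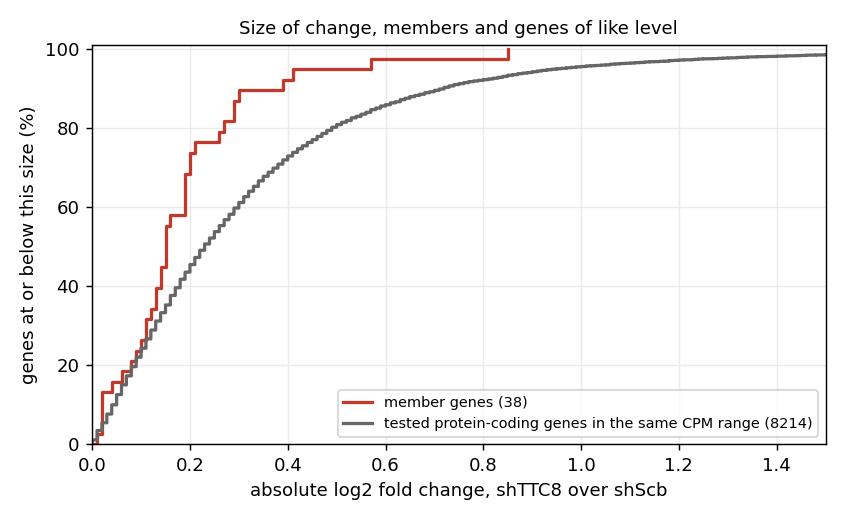
Cumulative share of genes by absolute log2 fold change, for the 38 members (red) and the 8214 tested protein-coding genes in the same range of mean CPM (grey; the members are among them). The median is 0.15 for the members and 0.23 for the comparison genes, and 1 member, IFT80, lies above 0.57. The members were chosen with earlier results of these data known.

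Of 13 other transport and motor genes, 5 rose and 3 fell (61.5% called, beside 31.9% of all tested genes). Among protein-coding genes in the members' range of level, which some of these genes exceed, the share was 40.0%. The list was chosen with earlier results of these data known, so its share is a description only. TTC30B and TTC30A encode IFT70, the IFT-B1 subunit that wraps around IFT52. TTC30B had 42.5 and 43.9 CPM in shTTC8, against 134 and 120 CPM in shScb, and TTC30A had 14.4 and 15.0 CPM in shTTC8 and 28.4 and 25.6 CPM in shScb. They fell by 1.56 (SE 0.07, edgeR adjusted p = 1.90e-09) and 0.87 (SE 0.10, edgeR adjusted p = 8.30e-06) on the log2 scale. The division of reads between them is uncertain, since their coding sequences are 96.0% identical and 15.8% of the 50-base stretches of the TTC30B transcript occur exactly in that of TTC30A. TTC30B also shares 220 exonic bases (5.48% of its exons) with AGPS, which had 105% of its counts and fell by 0.57. IFT25 (HSPB11), the partner of IFT27, had 12.7 and 12.4 CPM in shTTC8 and 13.7 and 14.4 CPM in shScb and was not called (-0.16, SE 0.11). The difference between the 2 genes was not tested.

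Within dynein-2 the subunit genes outside the 38 went both ways. The intermediate chain gene DYNC2I1 (WDR60) fell to 22.5 and 22.2 CPM in shTTC8, against 30.5 and 30.2 CPM in shScb (log2 fold change -0.44, SE 0.09, edgeR adjusted p = 0.00113). The light chain genes DYNLT2B (0.60, SE 0.14, edgeR adjusted p = 0.00365), DYNLRB1 (0.41, SE 0.06, edgeR adjusted p = 1.69e-04) and DYNLL1 (0.22, SE 0.06, edgeR adjusted p = 0.0103) rose. DYNLRB1 and DYNLL1 serve cytoplasmic dynein as well. DYNC2I2 (WDR34), the other intermediate chain, rose by 0.18 (edgeR adjusted p = 0.0368), a call lost in 8 of 14 alternative fits, and DYNLL1 lost its call without shTTC8 replicate 1 (edgeR adjusted p = 0.119) or 2 (0.0741). Of the kinesin-2 genes, KIF3B had 64.1 and 65.7 CPM in shTTC8 and 40.9 and 38.5 CPM in shScb (0.71, SE 0.07, edgeR adjusted p = 3.75e-06), while its heterodimer partner KIF3A (-0.16), the adaptor KIFAP3 (0.08) and KIF17 (-0.28) were not called.

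Of 13 other transition zone genes, 1 rose and 1 fell (15.4% called, beside 31.9% of all tested genes). CEP290, which tethers the axoneme to the membrane, had 24.3 and 25.5 CPM in shTTC8 and 42.7 and 36.6 CPM in shScb (-0.67, SE 0.09, edgeR adjusted p = 6.36e-05). It shares 401 exonic bases (3.86% of its exons) with C12orf29 on the opposite strand, which had 120% of its counts and fell by 0.79. TMEM138 rose by 0.29 (edgeR adjusted p = 0.0226), and lost its call without a low-count filter (0.065) and without shTTC8 replicate 1 (0.0772) or 2 (0.159).

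**Figure D4:**
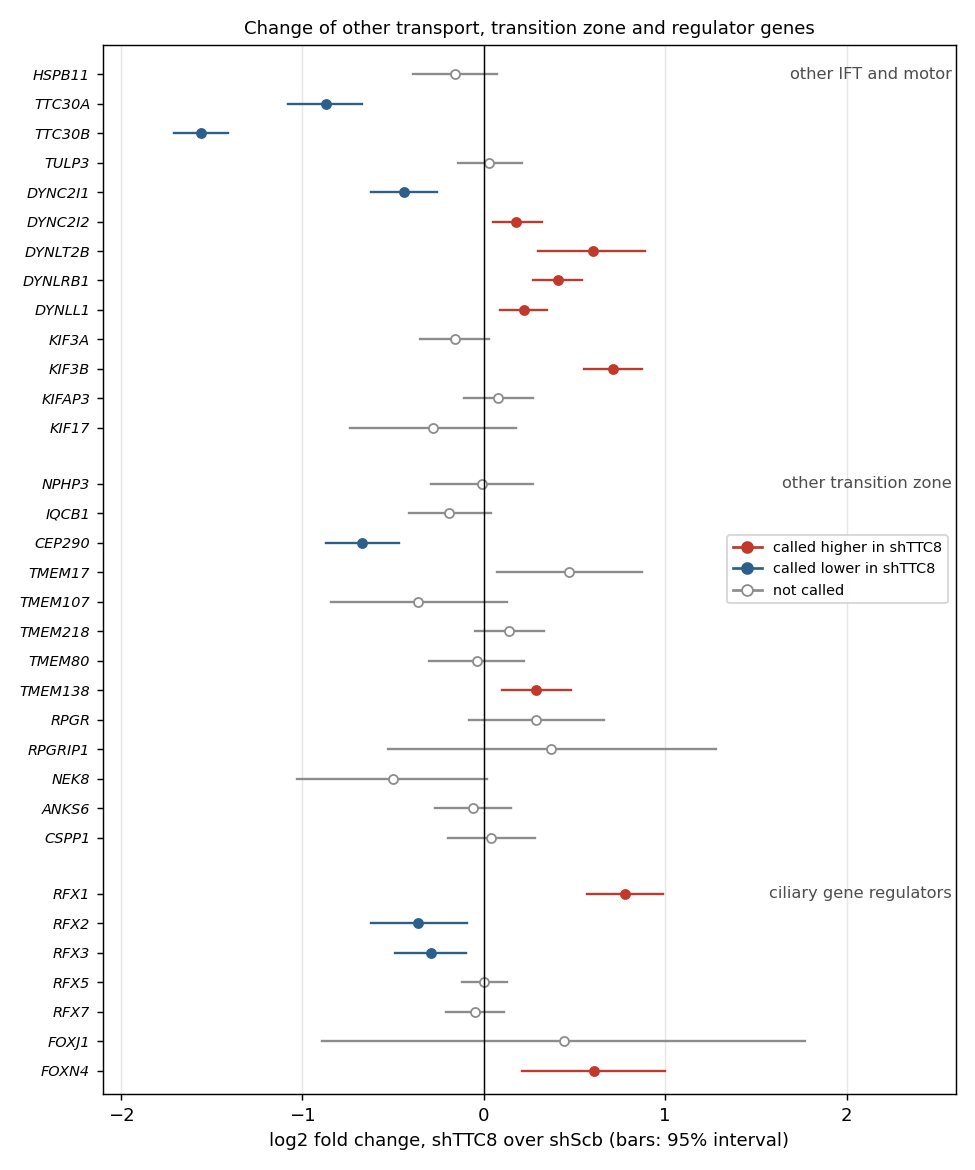
Log2 fold change of shTTC8 over shScb with 95% intervals for genes outside the 38: other transport and motor genes, other transition zone genes and the tested regulators of ciliary genes. TTC30B (-1.56) and TTC30A (-0.87) are the lowest, and KIF3B (0.71) and RFX1 (0.78) the highest called genes.

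Among 10 regulators of ciliary genes, 7 passed the low-count filter, and 2 rose and 2 fell (57.1% of those tested, beside 31.9% of all tested genes). For protein-coding genes in the members' range of level the share was 40.0%, and this list too was chosen with earlier results known. RFX1, a factor that binds the X-box, had 25.8 and 24.9 CPM in shTTC8, against 13.9 and 15.7 CPM in shScb (log2 fold change 0.78, SE 0.10, edgeR adjusted p = 2.90e-05). RFX3 fell by 0.29 (SE 0.09, edgeR adjusted p = 0.0213) and RFX2 fell by 0.36 (SE 0.12, edgeR adjusted p = 0.0404). RFX3 lost its call in 4 and RFX2 in 8 of 14 alternative fits. FOXN4 rose by 0.61 (SE 0.19, edgeR adjusted p = 0.0213), lost without shTTC8 replicate 2 (0.187), by DESeq2 (0.0561) and without a low-count filter (0.0554). FOXJ1, the master factor of motile cilia, had 0.184 to 0.29 CPM over the 4 libraries, and RFX4 and GMNC had no counts.

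The promoter windows of the members shared sequence that the choice of genes had not used. The 6 motifs searched on both strands were chosen after the expression values were known. The X-box half-site GTTGCC lay in the windows of 14 of the 33 member genes (42.4%), beside 14.6% of all 27305 RefSeq genes with a window and 16.9% of the tested protein-coding genes. It also lay in windows of 10 of the 28 related transport, transition zone and regulator genes that have a window. Of the 6 called members 1, IFT27, held it, on the minus strand of the gene with its first base at position -41 (0 at the start), where it shares a base with a CCAAT box. The palindrome TGACGTCA lay in 5 of 33 (IFT27, IFT43, IFT20, IFT57 and AHI1), beside 2.25% of all genes and 3.72% of the tested protein-coding genes. Its first base was at position -184 in IFT27 and 3 in IFT43, the largest rises among called members, while IFT20, IFT57 and AHI1 were not called. The full X-box consensus was in 1 of the 33 member genes, IFT122, at position -12 (0.168% of all genes), where it contains the half-site.

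The E-box CACGTG, to which MYC proteins bind, lay in 3 of 33 member genes (9.09%, beside 12.5% of the tested protein-coding genes), of which ARL3 was called. The ETS motif CCGGAAG was in 6 (18.2%, beside 21.2%) and CCAAT in 18 (54.5%, beside 43.0%). Of the 6 called members 5 held CCAAT, all but IFT80, and none held the ETS motif. The window of IFT80 held none of the 6 motifs. A match is a run of letters in a window and shows no binding.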

How the data were processed

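RNA was sequenced from 2 shTTC8 and 2 shScb libraries, grouped by sample title. Per the labels' protocols, libraries were made from TRIzol-extracted total RNA with the Illumina TruSeq RNA kit. The submitters' processing notes name HISAT2 2.2.0 and hg38. Neither labels nor notes name the read counter or its annotation. The authors deposited whole-number counts per Ensembl gene, not normalized, and all 4 columns were used.

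The tests ran in edgeR 4.0.16 (R 4.3.3): filterByExpr kept 19610 genes, TMM scaled the libraries, and the robust quasi-likelihood F test of shTTC8 against shScb was adjusted by Benjamini-Hochberg over those genes. An SE is the absolute log2 fold change divided by the root of F, and 95% intervals use the degrees of freedom of the fit. Alternatives used DESeq2 1.42.0 and limma-voom (limma 3.58.1). The code was tested on simulated data. Names came from a gene name table and GENCODE 29 (GRCh38), which gave exon-union lengths and shared exonic positions; 1 marker, CCDC39, was not matched. Some genes of the partner and marker lists are not reported here. The members and gene lists were chosen with earlier results of these data known. Named genes are TTC8, all called members, the smallest p among uncalled members and the highest and lowest level per kilobase of each submodule, and called genes of the partner lists; other members are named in passing.

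Within groups, log2 CPM correlated across genes at 0.986 (shTTC8) and 0.987 (shScb), and chi-square per degree of freedom was 6.88 and 12.5, so replicates differed by more than sampling noise and none was counted as 1 sample.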

Additional observations from a re-analysis of the deposited data

How the results depend on the processing

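TTC8 kept its direction and call in all 14 alternative fits (-2.73 to -2.59). Of the 6 called members, IFT27 and IFT80 kept their calls in all 14, and 4 lost theirs in at least 1. Of the 32 members not called, 8 were called in at least 1 alternative. The 4 higher calls became 7 with the GC content and length offset and 1 at an edgeR adjusted p under 0.01. The 2 lower calls became 1 with library size alone, with the GC and length offset and at an edgeR adjusted p under 0.01. They also became 1 with the 10 members sharing exonic positions left out, and 4 with the stricter filter. Both counts also changed with 1 library left out, which leaves 1 in its group. Shares of all tested genes called are given below, but not the share at an edgeR adjusted p under 0.01. The members' median of -0.018 was 0.023 with library size alone, -0.044 with no low-count filter, 0.036 with the GC and length offset, and -0.035 to 0.002 with 1 library left out. The median of all tested genes moved too, from 0.004 to 0.045 with library size alone and -0.019 with no low-count filter. With the GC and length offset it was 0.009. The cause was not tested.

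Signs changed in 10 members, none of them called, whose log2 fold changes in the report were at most 0.13 in size. With library size alone, IFT46 was at 0.02, IFT20 at 0.02, DYNC2LI1 at 0.03, TCTN2 at 0.03 and NPHP4 at 0. With the GC and length offset, IFT140 was at -0.05, WDR35 at 0.03, IFT20 at 0.03, DYNC2LI1 at 0.09, TCTN2 at 0.05 and RPGRIP1L at 0.05. IFT140 was at -0.01 with no filter, and IFT46 at 0.01 and DYNC2LI1 at 0.05 after thinning. With 1 library left out, IFT140 ranged from -0.09 to 0.12, IFT46 from -0.07 to 0.03, TTC26 from -0.31 to 0.12, IFT20 from -0.09 to 0.05, DYNC2LI1 from -0.07 to 0.05, TMEM216 from -0.08 to 0.31, TCTN2 from -0.11 to 0.07 and NPHP4 from -0.11 to 0.03.

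The replicate numbers share only a number: deviations of same-numbered libraries correlated at 0.0317. With the replicate block, 5 members were higher and 2 lower, and 32.8% of all tested genes were called. That share was 32.3% with library size alone, 37.1% with the GC and length offset and 41% with the stricter filter. Over all genes 31.9% were called in the main fit, and 15.4% of 33779 genes with no filter.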
